A study of Rattus norvegicus with 4 samples.

Results

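The constitutive proteasome genes encode the subunits of the protease that most cells run all the time, set here apart from the inducible immunoproteasome subunits. They were followed in rat oligodendrocyte precursor cells, the dividing progenitors of myelinating oligodendrocytes. The members were the genes whose symbol begins with Psma, Psmb, Psmc, Psmd or Psme, other than Psmb8, Psmb9 and Psmb10, with a probe well above background on at least 2 of the 4 arrays. The scanner files held accessions and no gene names, so symbols came from those accessions through a RefSeq table. The brightest such probe stood for its gene. This gave 40 genes of 23155 features in all, and 41 genes carried the prefixes before the requirement on brightness. The gene left out was Psma8, an alpha subunit known from the testis of mice, whose probe was above background on 0 arrays. Its raw signals were 8.47 and 6.19 after the mimic and 10.2 and 3.81 in the controls.

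RNA was compared between precursors given a mimic of miR-125a-3p and precursors given a negative control RNA, called miR-neg here, with 2 samples in each group and 1 single-colour array per sample. Per the labels, both groups were cortical cells of postnatal day 2 rats that had grown for 3 days with bFGF and PDGF. Both were transfected with Lipofectamine RNAiMax, with the dose recorded as 50 nM for both groups, and lysed 48 h later. The labels also call the cells oligodendrocytes at 2 days in vitro. The design text calls the samples independent but names neither animals nor cultures, so the p-values cover only how far these samples differ, which may be technical.

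The proteasome is a barrel of stacked rings, the 20S core, in which alpha subunits form the outer, gating rings and beta subunits the inner, cutting rings. The 19S regulatory particle caps the barrel, recognises proteins tagged with ubiquitin, unfolds them with a ring of ATPases and feeds them in. Other caps, encoded by the Psme genes, open the core without using ubiquitin or ATP. In mammalian cells the genes of core and cap are known to rise together when the proteasome is inhibited, through the factor NRF1 acting on antioxidant response elements.

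The microRNA that was raised is given first, because its mimic is the difference between the groups that the labels give. The mature rat sequence in RefSeq, on the plus strand of GRCr8 at chr1:67350727-67350748, has its seed, bases 2 to 8, in capitals.
rno-miR-125a-3p: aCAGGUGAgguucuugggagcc

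No proteasome gene was shown to change after the mimic. In limma, 0 of the 40 genes passed an adjusted p of 0.05, where 0.687% of all features did. At an unadjusted p under 0.05 there were 3 of 40, Psme1, Psme4 and Psmc3ip, the last not a proteasome subunit. Of all features, 19.6% were under it, and of the 5789 brightest features 834 were. In bulk RNA such as this, fewer cells of a type and less RNA per cell cannot be told apart. The changes were small. The median absolute change of the 40 genes was 0.05 on the log2 scale, against 0.15 over all features and 0.10 over the 5789 brightest features, among which 37 of the 40 genes lay. A change of over 0.25 in either direction was seen at 3 of the 40 genes (7.5%), at 29.3% of all features and at 13.9% of the 5789 brightest. The median absolute gap between the miR-neg replicates was 0.08 for the 40 genes, 0.13 over all features and 0.08 over the 5789 brightest, so bright probes varied less within a group too. The part that brightness has in the narrow range was not tested beyond these values. The members lie toward the bright end and close to 0 in the plot of change against level.

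**Figure D1:**
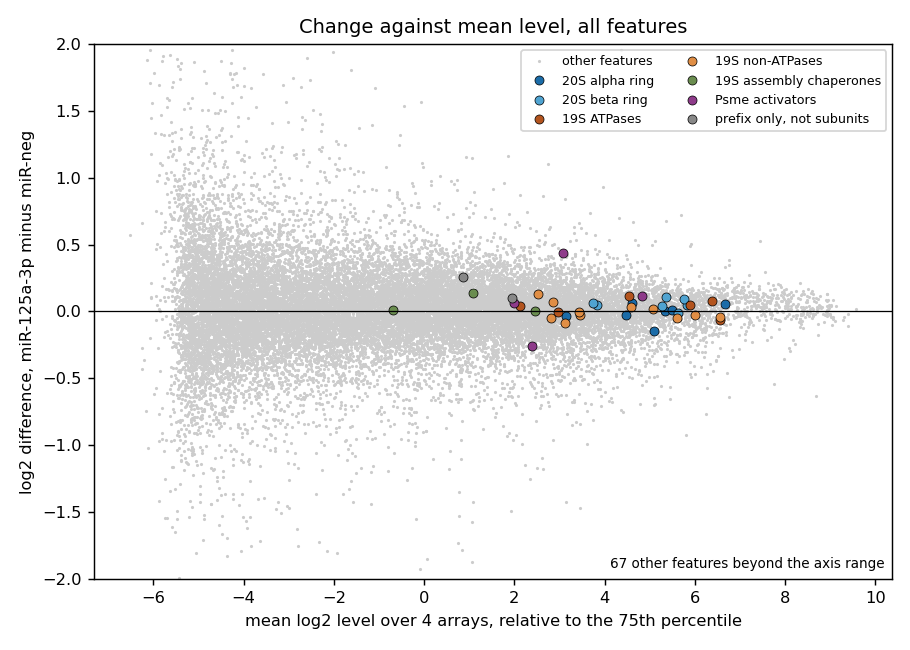
Log2 difference between miR-125a-3p and miR-neg (vertical axis) against the mean log2 level over 4 arrays (horizontal axis) for all features, with proteasome genes coloured by subcomplex. The coloured points stay near 0, with Psme1 at 0.43 and Psme4 at -0.26 as the farthest, while 67 other features lie beyond the axis range.

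Both miR-125a-3p arrays lay above both miR-neg arrays at 10 of the 40 genes, where 29% of all features did so. Both lay below at 4 of the 40, where 23.9% of all features did. At the remaining 26 genes the groups overlapped. Levels below are log2 intensities relative to the 75th percentile of the same array, and each probe is compared with itself between arrays. The sums of marker levels given at the end add probes and so weigh bright ones most.

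The alpha ring has 7 members on the array, Psma1 to Psma7, and their changes ran from -0.15 to 0.06 with a median of 0.00. Psma4 was the member with the largest difference. Its levels were 5.08 and 4.96 after the mimic, against 5.17 and 5.16 in miR-neg, so both mimic arrays were lower. The difference was -0.15 (SE 0.08, n = 2 per group, adjusted p = 0.425 in limma), with a 95% interval from -0.38 to 0.09. Psma1 was at 0.06, with both mimic arrays above both controls, and the groups overlapped for Psma2 (-0.03), Psma3 (-0.04), Psma5 (0.00), Psma6 (0.06) and Psma7 (0.01). Psma6 shows how much the controls alone could differ, with 6.72 and 6.68 after the mimic lying between 6.52 and 6.77 in miR-neg.

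The beta ring had 6 of 7 members above 0, with changes from -0.01 to 0.11 and a median of 0.05. Of these, Psmb5, Psmb6 and Psmb7 carry the active sites. Psmb5, the chymotrypsin-like protease, had 5.41 and 5.40 after the mimic, against 5.28 and 5.32 in miR-neg. The groups did not overlap, and the difference was 0.11 (SE 0.07, adjusted p = 0.5 in limma, n = 2 per group), with a 95% interval from -0.10 to 0.31. Psmb6, the caspase-like protease, had 5.77 and 5.84 after the mimic, against 5.63 and 5.80 in miR-neg. The groups overlapped, since 1 control lay between the mimic arrays, and the difference was 0.09 (SE 0.10). A further probe of Psmb6 changed by 0.07, with both mimic arrays above both controls. Psmb7, the trypsin-like protease, had 3.77 and 3.78 after the mimic, against 3.74 and 3.68 in miR-neg, a difference of 0.06 (SE 0.08) without overlap. The structural subunits Psmb1 (0.05), Psmb2 (0.05), Psmb3 (0.04) and Psmb4 (-0.01) had overlapping groups.

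**Figure D2:**
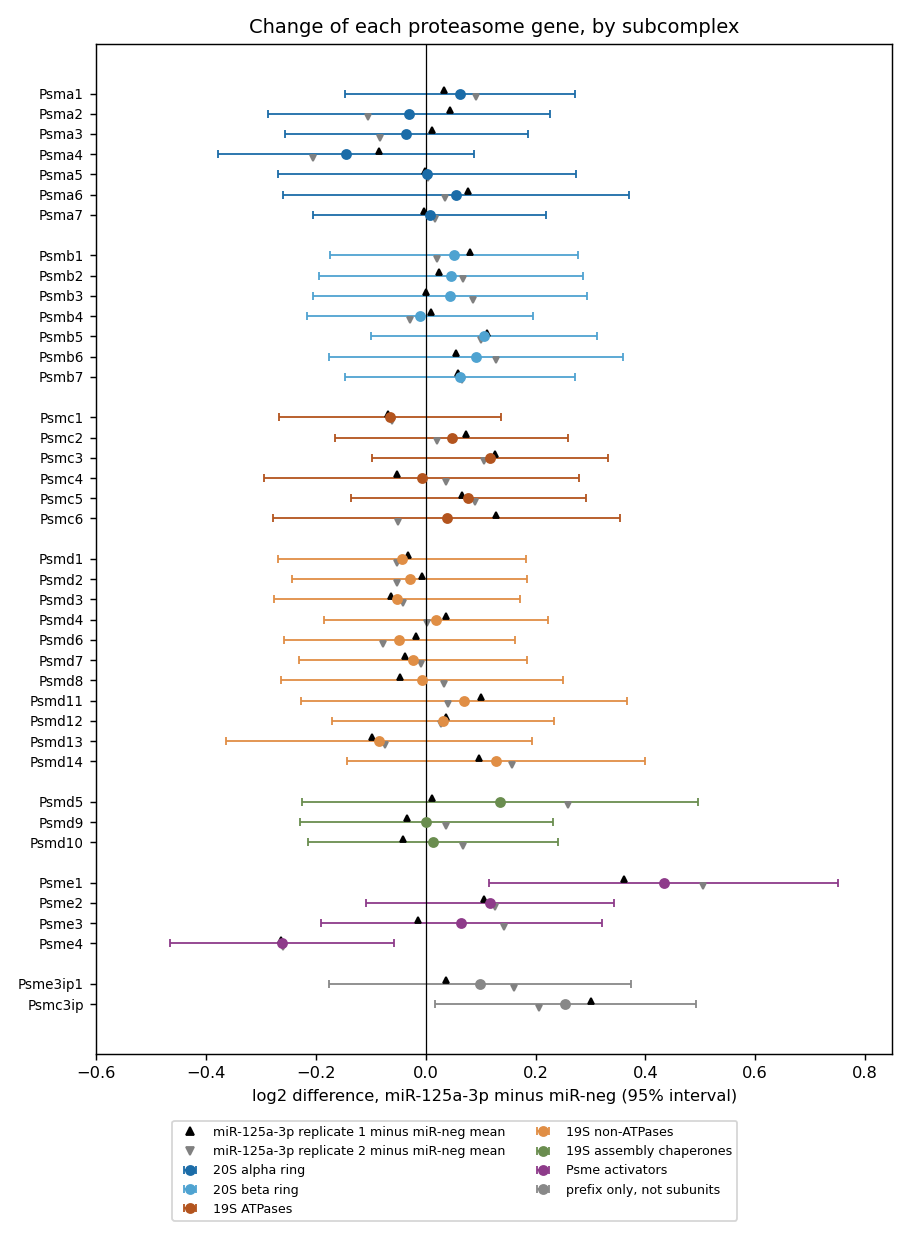
Log2 difference between miR-125a-3p and miR-neg for each of 40 genes, by subcomplex, with the 95% interval from limma (bars) and each miR-125a-3p array minus the miR-neg mean (triangles). The intervals of all core and 19S genes span 0, and those of Psme1, Psme4 and Psmc3ip do not.

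The ATPase ring of the 19S particle, Psmc1 to Psmc6, had changes from -0.07 to 0.12 with a median of 0.04. Psmc1 had 6.51 and 6.52 after the mimic, against 6.58 and 6.59 in miR-neg. Both mimic arrays were lower, by 0.07 (SE 0.07, adjusted p = 0.676 in limma, n = 2 per group), and a further probe of Psmc1 changed by -0.08. Psmc3 (0.12) and Psmc5 (0.08) were higher on both mimic arrays, and the groups overlapped for Psmc2 (0.05), Psmc4 (-0.01) and Psmc6 (0.04).

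The 11 non-ATPase subunits of the 19S particle had changes from -0.09 to 0.13 with a median of -0.02, and 7 of them lay below 0. Psmd14, the metalloprotease that removes ubiquitin chains from substrates, had 2.57 and 2.63 after the mimic, against 2.56 and 2.38 in miR-neg. The groups were separate by a narrow gap, and the difference was 0.13 (SE 0.10, adjusted p = 0.538 in limma, n = 2 per group), with a 95% interval from -0.14 to 0.40. Its partner without catalytic activity, Psmd7, was at -0.02, and the ubiquitin receptor Psmd4 was at 0.02. The large scaffold subunits Psmd1 and Psmd2 were at -0.04 and -0.03. Among the subunits of the lid, Psmd13 was at -0.09, Psmd3 and Psmd6 at -0.05, Psmd8 at -0.01, Psmd12 at 0.03 and Psmd11 at 0.07. Apart from Psmd14, Psmd12 was separate in the higher direction and Psmd6 in the lower one. Among the chaperones that assemble the base of the 19S particle, Psmd5, Psmd9 and Psmd10 were at 0.14, 0.00 and 0.01, and the groups overlapped for all 3.

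The comparison of the core with the 19S particle gave medians of 0.04 for 14 core genes and -0.01 for 17 genes of the 19S particle, a value that turned above 0 with normexp on median spot signals, with quantile normalization and in 3 of the 4 fits without 1 array, against 0.01 over all features. In limma, 0 of these 31 genes passed an adjusted p of 0.05, where 0.687% of all features did. At an unadjusted p under 0.05 there were 0 of the 31, against 19.6% of all features and 834 of the 5789 brightest. The core median exceeded the 19S median by 0.05. For single mimic arrays against the miR-neg mean, the core median was at 0.03 for replicate 1 and 0.03 for replicate 2, and the 19S median at -0.01 and 0.00. Those values have to be read beside the gap between the controls. The core median of miR-neg replicate 2 minus miR-neg replicate 1 was 0.06, while the 19S median of that difference was 0.01. The core-minus-19S value was thus 0.051 between the groups, 0.0070 between the mimic replicates (replicate 2 minus replicate 1) and 0.051 between the controls (likewise). Without miR-neg replicate 1 the core-minus-19S value turned to -0.02, and without miR-neg replicate 2 it was 0.07. The value between the groups was thus of the size of the gap between the controls and above that between the mimic arrays, and it had no test.

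**Figure D3:**
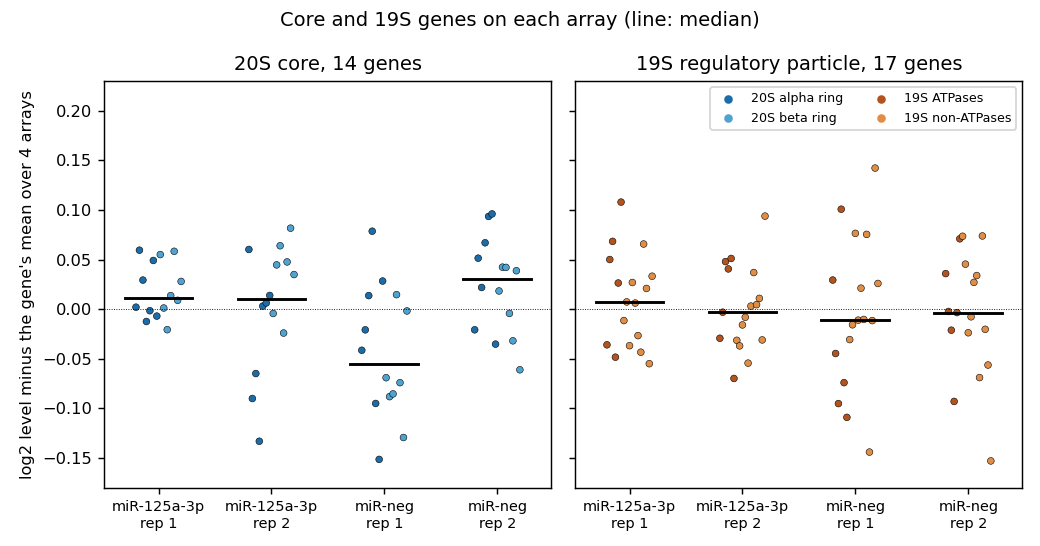
Log2 level of each gene minus its own mean over 4 arrays, for 14 core genes (left) and 17 genes of the 19S particle (right) on each array, with the median as a line. The core medians were 0.01 and 0.01 after the mimic, against -0.06 and 0.03 in miR-neg, so the controls lie on either side of the mimic arrays.

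The precision of these values is set by 2 arrays per group. For the core genes, the 95% intervals of the single genes together spanned folds from 0.769 to 1.29, and for the 19S genes from 0.777 to 1.32. Each interval was computed for 1 gene and is not widened for the number of genes.

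The Psme activators spread more widely than the core and the 19S particle. Psme1 encodes the alpha subunit of the activator PA28, a cap that interferon-gamma is known to induce. Its levels were 3.22 and 3.36 after the mimic, against 2.75 and 2.97 in miR-neg. Both mimic arrays were higher, by 0.43 (SE 0.12, n = 2 per group), a fold of 1.35 with a 95% interval from 1.08 to 1.68, and the adjusted p was 0.176 in limma. Psme1 passed the threshold in limma with normexp on median spot signals (0.42, adjusted p = 0.0344) and with a variance trend (adjusted p = 0.0181). The normexp setting changes the background correction and the signal column together. The adjusted p in limma was 0.464 without a filter on dim probes, 0.197 with the replicate number as a block and 0.204 with median centring. With 1 array left out, the change of Psme1 ran from 0.33 to 0.54, the adjusted p in limma was at least 0.228, and the smallest change came without miR-neg replicate 1.

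Psme2 encodes the other PA28 subunit, which assembles with the Psme1 product into 1 ring. It had 4.88 and 4.90 after the mimic, against 4.72 and 4.83 in miR-neg. The mimic arrays were again higher, by 0.12 (SE 0.08, adjusted p = 0.498 in limma, n = 2 per group). The difference between the changes of Psme1 and Psme2 was not tested, and their intervals, 0.11 to 0.75 and -0.11 to 0.34, overlap. Psme3, the nuclear relative of PA28, was at 0.06 with overlapping groups.

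Psme4 encodes PA200, a large nuclear cap known for work on histones in the testis of mice. It had 2.27 and 2.27 after the mimic, against 2.54 and 2.51 in miR-neg, with little spread within either group. Both mimic arrays were lower, by 0.26 (SE 0.07, n = 2 per group), a fold of 0.834 with a 95% interval from 0.724 to 0.961. The adjusted p was 0.191 in limma, and 0.0439 with a variance trend. In limma it was 0.0832 with normexp on median spot signals, 0.313 with the replicate number as a block and 0.511 without a filter on dim probes. With 1 array left out, the change of Psme4 stayed between -0.28 and -0.25.

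**Figure D4:**
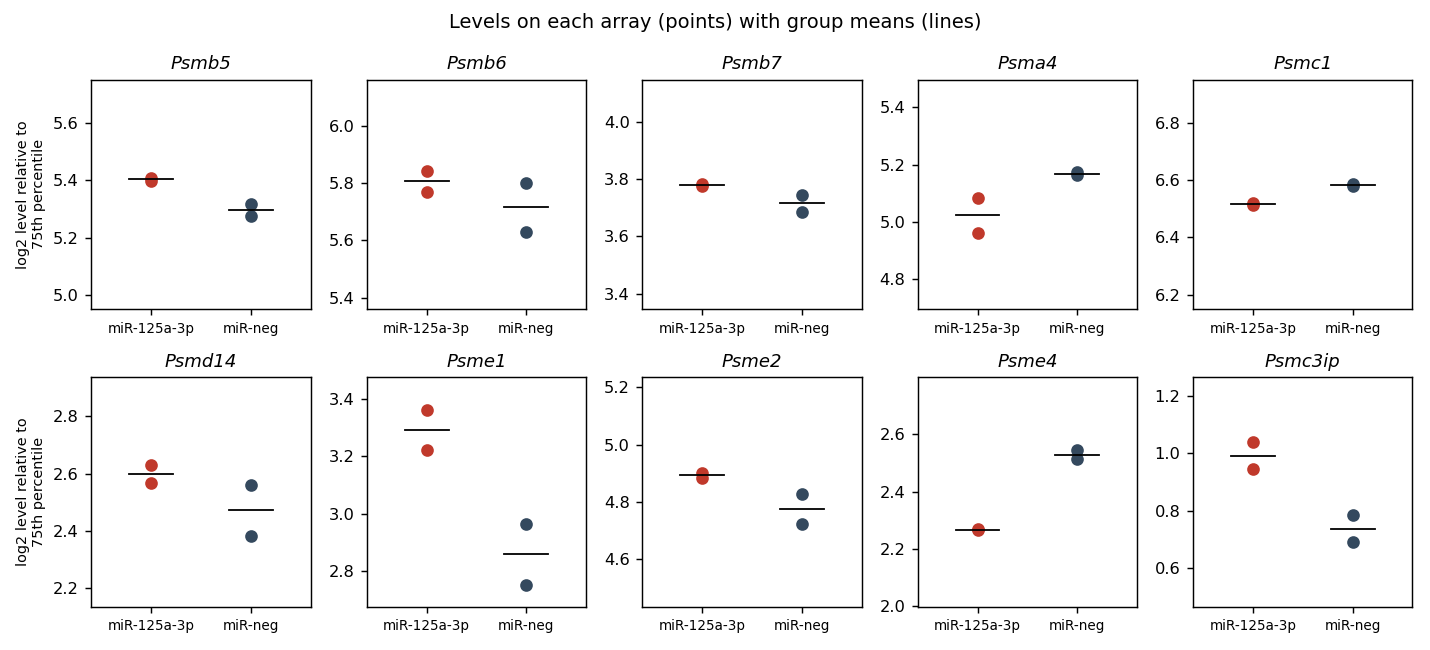
Log2 level relative to the 75th percentile of the array for 10 genes, with miR-125a-3p left and miR-neg right, points for single arrays and lines for group means; every panel spans the same range of log2 units. The widest differences are at Psme1 (0.43), Psme4 (-0.26) and Psmc3ip (0.25), and the catalytic subunits Psmb5, Psmb6 and Psmb7 differ by 0.11 or less.

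The immunoproteasome subunits, which replace the catalytic subunits in cells exposed to interferon, were measured on the same arrays. Psmb8, the counterpart of Psmb5, had -1.07 and -1.02 after the mimic against -2.18 and -1.97 in miR-neg (difference 1.03, SE 0.10, adjusted p = 0.0536 in limma), and Psmb9 and Psmb10, the counterparts of Psmb6 and Psmb7, were at 0.63 and -0.03.

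A pair of genes entered through the prefix alone and is not made of proteasome subunits. Psmc3ip, a factor of meiotic recombination, had 1.04 and 0.94 after the mimic, against 0.69 and 0.78 in miR-neg. Both mimic arrays were higher, by 0.25 (SE 0.09, adjusted p = 0.237 in limma, n = 2 per group). Psme3ip1, whose product binds that of Psme3, was at 0.10 with overlapping groups. The medians of the core and the 19S particle hold neither.

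Promoters were examined because shared elements are the known route by which core and 19S genes move together. RefSeq windows of 250 bases before to 50 after the annotated start, on GRCr8, were given for 36 of the 40 genes. The antioxidant response element core TGACNNNGC, on either strand, was found in 8 of 36 windows (22.2%), against 12.1% of 33469 windows of the same length. The genes holding it were Psma3, Psmb2, Psmb5, Psmb6, Psmd1, Psmd3, Psmd9 and Psme4. By particle, it was in 4 of 13 core windows (30.8%) and in 2 of 14 windows of the 19S particle (14.3%). The NF-Y box CCAAT, on either strand, was in 19 of 36 (52.8%), against 37.5% of all windows. It was in 9 of 13 core windows and in 5 of 14 windows of the 19S particle. The core of the interferon-stimulated response element, on either strand, was in 4 of 36 (11.1%), against 3.92% of all windows, at Psma4, Psmb3, Psmd7 and Psme2. The nuclear respiratory factor site, on either strand, was in 1 of 36, at Psma2, against 0.852% of all windows. The only overlap between motifs was at Psmb2, where a CCAAT match ends on the base where TGACNNNGC begins. A match describes letters in a window and does not show that a factor binds there.

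**Figure D5:**
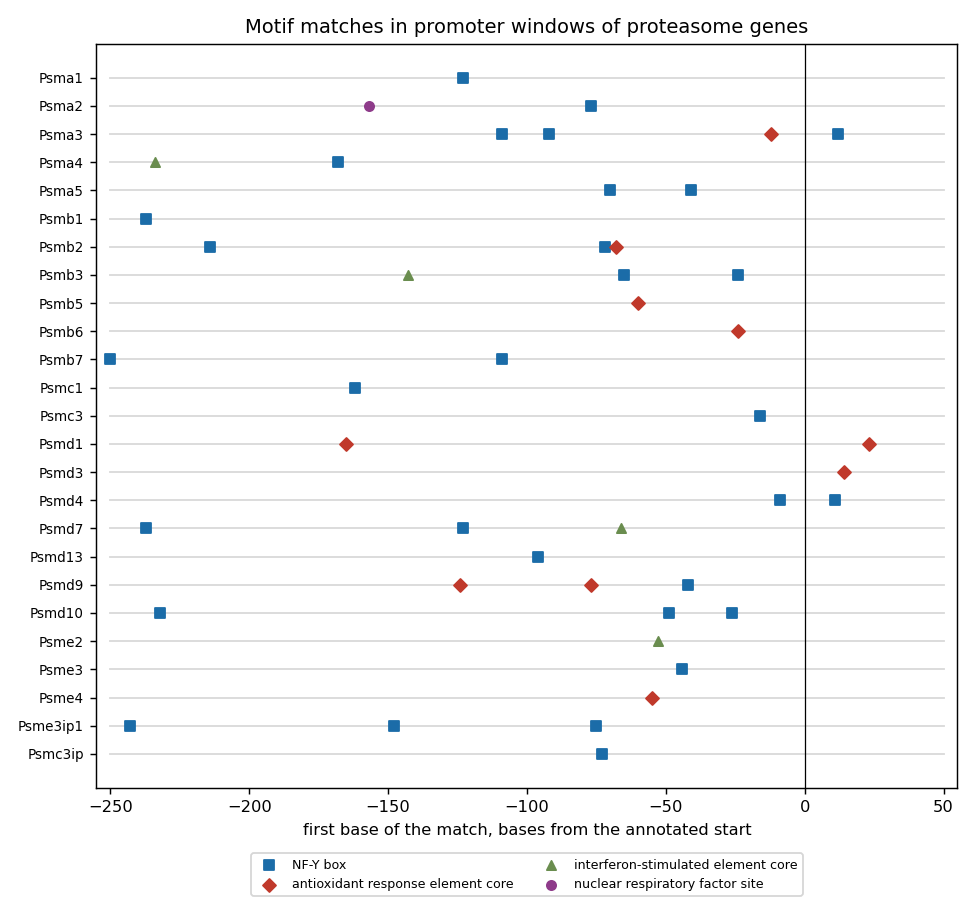
Position of the first base of each motif match, in bases from the annotated start (horizontal axis), for the proteasome genes whose promoter window held a match (rows). NF-Y boxes are spread over the core genes, and the antioxidant response element core begins at position -60 for Psmb5 and -55 for Psme4.

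The promoters of the members with the largest changes in each direction, Psme1 and Psme4, are printed with that of the PA28 partner Psme2 and that of the catalytic core gene Psmb5. Each line is written 5′ to 3′ along the gene's strand, and capitals mark any match to the motifs above. The windows lie at chr15:33038721-33039020 on the plus strand for Psme1, chr15:33052702-33053001 on the minus strand for Psme2, chr14:108706393-108706692 on the plus strand for Psme4 and chr15:32047330-32047629 on the minus strand for Psmb5.
Psme1: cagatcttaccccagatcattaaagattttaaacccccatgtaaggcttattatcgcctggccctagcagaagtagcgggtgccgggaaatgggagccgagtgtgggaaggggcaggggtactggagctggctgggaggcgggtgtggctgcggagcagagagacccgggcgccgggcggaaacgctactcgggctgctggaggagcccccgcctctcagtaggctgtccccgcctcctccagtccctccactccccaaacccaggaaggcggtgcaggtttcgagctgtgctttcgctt
Psme2: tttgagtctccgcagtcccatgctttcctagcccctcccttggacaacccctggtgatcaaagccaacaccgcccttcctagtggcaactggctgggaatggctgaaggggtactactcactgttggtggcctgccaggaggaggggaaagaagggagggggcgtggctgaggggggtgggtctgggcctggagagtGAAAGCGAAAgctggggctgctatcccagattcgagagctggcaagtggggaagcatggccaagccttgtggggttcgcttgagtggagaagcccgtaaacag
Psme4: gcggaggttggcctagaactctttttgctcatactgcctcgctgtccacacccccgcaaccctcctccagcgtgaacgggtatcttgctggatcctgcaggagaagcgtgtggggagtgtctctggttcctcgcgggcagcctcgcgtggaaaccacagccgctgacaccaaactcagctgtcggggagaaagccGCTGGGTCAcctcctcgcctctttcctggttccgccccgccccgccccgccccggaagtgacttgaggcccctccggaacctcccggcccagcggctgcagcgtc
Psmb5: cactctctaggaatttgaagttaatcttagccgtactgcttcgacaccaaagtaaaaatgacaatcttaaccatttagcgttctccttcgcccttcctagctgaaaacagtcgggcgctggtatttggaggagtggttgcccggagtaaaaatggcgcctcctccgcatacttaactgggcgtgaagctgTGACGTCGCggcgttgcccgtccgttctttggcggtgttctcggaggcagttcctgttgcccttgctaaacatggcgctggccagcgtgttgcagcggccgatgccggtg
The window of Psme2 holds the interferon-stimulated element core, beginning at position -53 from the start, and that of Psme1 holds no whole match. The last bases of the Psme1 window match part of the interferon-stimulated element core on the opposite strand. Partial matches were not counted over the windows, so this one has no share beside it and is not counted as a site. Bases beyond the window were not searched. The window of Psme4 holds the antioxidant response element core on the opposite strand, and that of Psmb5 holds it on the gene's own strand. Psmb5 was at 0.11 and Psme4 at -0.26, and neither passed the threshold. A relation between the motifs and the changes was not tested.

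Other genes of the ubiquitin and proteasome system were taken from fixed lists. Of those measured, 0 passed an adjusted p of 0.05 in limma, where 0.687% of all features did. Of 6 listed assembly factors of the proteasome, 3 were measured, Pomp (0.07), Psmg2 (0.13) and Psmg4 (0.15). Of 12 listed symbols of proteasome-associated genes, 7 were measured, with a median of 0.04. The largest change among them was at Usp14, a deubiquitinase of the 19S particle, with 0.14 (SE 0.09). Of 18 listed symbols of ubiquitin, activating and shuttle genes, 17 were measured, and the other is an older symbol of Ufd1. Of these, 7 lay above 0 and 10 below, with a median of -0.02. Ubb, which encodes ubiquitin, was at 0.04. Ddi2, the protease that activates NRF1, had the largest change, -0.37 (SE 0.13, adjusted p = 0.242 in limma). It was the only one of the 17 at an unadjusted p under 0.05, where 19.6% of all features were.

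Among 10 listed genes of proteasome transcription, 9 were measured, with a median of -0.01. Ngly1, the enzyme that removes sugars from NRF1, was at 0.08. Nfe2l2, which encodes the stress factor NRF2, was at 0.43 (SE 0.09, adjusted p = 0.127 in limma), and Maff, a small partner of both factors, at 0.98 (SE 0.15, adjusted p = 0.0861). These were the 2 of the 9 measured genes at an unadjusted p under 0.05, where 19.6% of all features were. Both were higher on both mimic arrays. Of the other small Maf genes listed, Mafg was at -0.02 with overlapping groups, and Mafk was at -0.15 with both mimic arrays lower. Nfe2l1, which encodes NRF1, was not analysed here.

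Markers of several cell types were measured in these cultures. Precursor markers were present, with 8 of 8 measured, changes from -0.37 to 0.38 (median 0.06) and summed levels of 359 and 378 after the mimic against 355 and 377 in miR-neg (linear, relative to the 75th percentile). Mature oligodendrocyte markers lay below 0 at 6 of 6, with a median change of -0.64 and sums of 488 and 466 after the mimic against 716 and 740 in miR-neg. Astrocyte markers lay above 0 at 8 of 8, with a median change of 0.49. Their sums were 205 and 208 after the mimic against 182 and 194 in miR-neg. Aldh1l1, at a mean level of -2.60, rose by 1.90 (adjusted p = 0.0344 in limma). Aldoc, the brightest of the 8 with a mean level of 7.39, was at 0.10, and S100b was at 0.04 with overlapping groups. Microglial markers lay above 0 at 6 of the 7 measured of 8, with a median change of 1.36. Their sums were 2.89 and 3.39 after the mimic against 2.40 and 2.63 in miR-neg. C1qa, at a mean level of -3.91, rose by 1.45 (adjusted p = 0.0379 in limma). The groups overlapped for Itgam (0.10) and for Cx3cr1 (-0.06), the brightest of the 7 with a mean level of 0.94. Fibroblast and vascular markers lay above 0 at 5 of the 5 measured of 7, with a median change of 1.21. Their sums were 0.861 and 1.01 after the mimic against 0.457 and 0.455 in miR-neg. Tagln rose by 1.21 (adjusted p = 0.0378 in limma). Aldh1l1, C1qa and Tagln were each the only marker of their list past the threshold, which 0.687% of all features passed. Of 5 neuron markers, 3 lay above 0, with a median change of 0.05 and sums of 4.58 and 4.99 after the mimic against 4.43 and 4.88 in miR-neg. Csf1r, Pecam1 and Cldn5 were not among the features tested. The part of these cell types in the values of Psme1 and the immunoproteasome genes was not tested. The arrays had 26332 to 28138 probes above background, 0 saturated spots and 75th percentiles of raw intensity from 681 to 746.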

How the data were processed

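Scanner files deposited by the authors held spot intensities. Background subtraction and spatial detrending were done in Agilent Feature Extraction 10.7.3.1 (version from the submitters' processing notes, steps per the file headers). Their deposited table was in log2 units and equalled log2 of those intensities, less a constant for each array, within 0.01 for 100% of the probes compared. Flagged and control spots were left out, repeated spots were averaged as log2 values, and the 75th percentile of the array was subtracted. Probes well above background on at least 2 of 4 arrays were kept (27250 of 45598), and the brightest probe stood for its gene. Accessions gave symbols for 21109 probes through the GRCr8 RefSeq table, which also lists 46 pseudogenes under the prefixes of the members. Cross-hybridisation with them was not tested.

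Groups were compared over all 23155 features with limma 3.58.1 in R 4.3.3 (two-sided, Benjamini-Hochberg), tested on simulated data. With 2 samples per group, the smallest p of an exact permutation test is 0.333. Members and lists were chosen with earlier results of these data known, and the interferon-stimulated motif after the values were seen. Values on every array are given for members past the threshold, the 3 largest increases and 3 largest decreases without overlap, and the catalytic subunits. Psma6, Psme2 and Psmb8 were added after their values were seen. The labels share replicate numbers between groups without stating a pairing, so the fit had no block.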

Additional observations from a re-analysis of the deposited data

How the results depend on the processing

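The count of 0 proteasome genes past the threshold became 1 with normexp on median spot signals (Psme1), an alternative chosen after seeing the data because the files hold no mean signal, and 2 with a variance trend (Psme1 higher, Psme4 lower). It stayed at 0 under the other alternatives run, including each array left out. The count over all features, 159 (88 higher, 71 lower), was 1601 with normexp on median spot signals, 83 under quantile normalization (37 higher, 46 lower), 601 on probes above background on all 4 arrays, 2037 with a variance trend, 991 at an adjusted p of 0.1, 0 without a filter on dim probes (3963 at an unadjusted p under 0.05), and from 0 to 0 with 1 array left out (2767 to 4124 such features). With the replicate number as a block, which is also a block on 1 slide axis, it was 0, with 3948 at an unadjusted p under 0.05, and 0 proteasome genes passed, with 1 at an unadjusted p under 0.05. Deviations of same-numbered arrays correlated at 0.0505, and with 2 pairs this leaves the pairing of samples undecided. All 4 arrays shared 1 slide and 1 scan, and the other slide axis followed the groups, so group and position on the slide cannot be told apart and no block on that axis was possible. The planned normexp on mean spot signals was not run.

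The 19S median of -0.0064 was 0.0035 with normexp on median spot signals, 0.0089 with quantile normalization, -0.023 with median centring and -0.014 from the deposited table. With 1 array left out it ran from -0.0075 to 0.013, the core median from -0.010 to 0.083, and their difference from -0.024 to 0.074, with the lowest core median and difference without miR-neg replicate 1. For these shifts and for the counts, the cause was not tested. Signs of members changed under 8 of 14 alternatives, at most 9 of 40 members in any, all with a main change under 0.09 in either direction. The largest main change among them was that of Psmd13 (-0.086), whose sign changed without miR-neg replicate 1.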
